A study of Homo sapiens with 46 samples.

Results

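The genes SMCHD1, SENP7, ZFP14 and ZNF702P were chosen by their summed counts, which were near 0 in undifferentiated human pluripotent stem cells (hPSC) and higher in cell types derived from them. They are 4 of the 21166 genes listed in at least 1 of 4 tables of transcript counts, each made on the transcript assembly of 1 cell type. Every row with 1 of these gene names was taken, which gave 4 transcript models in the hPSC table, 12 in the ectoderm table, 5 in the endoderm table and 13 in the mesoderm table. The levels in hPSC and in the derived cells are what chose the genes, so they are described here without a test. They serve 2 questions: whether the near absence in hPSC held in every subcellular fraction, and whether the hPSC table lacked the transcript that carried the gene elsewhere.

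RNA was sequenced in 46 libraries from H1, an established hPSC line, and from 3 cell types grown out of it. The hPSC were kept on Matrigel in mTeSR1 medium. After 5 days, endoderm had been made with WNT3A and Activin A; mesoderm with Activin A on the first day, VEGF, BMP4 and bFGF; and ectoderm with KOSR medium, A83-01, PNU-74654 and dorsomorphin. Each cell type gave cytoplasm and nucleus, and the nucleus was further parted into chromatin and a soluble nucleoplasm. There were 3 libraries per group, and a single one for mesoderm nucleoplasm. All cells came from the H1 line, and the labels do not say whether repeats were separate cultures, so p-values measure the spread between these libraries.

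SMCHD1 encodes a chromatin protein related to the structural maintenance of chromosomes (SMC) family, and it is known for keeping genes silent on the inactive X chromosome and at other repressed loci. SENP7 encodes a protease that trims chains of SUMO, a small protein tag, and it has been linked to heterochromatin proteins. ZFP14 encodes a zinc finger protein whose amino end holds a KRAB domain, the part by which such proteins recruit repressors. ZNF702P is annotated as a transcribed processed pseudogene of a zinc finger gene, and no protein role is ascribed to it here. In GENCODE release 29 on the hg38 build, SMCHD1 lies at chr18:2655738-2805017 on the plus strand, SENP7 at chr3:101324205-101513241, ZFP14 at chr19:36334453-36379199 and ZNF702P at chr19:52968251-53037898, these 3 on the minus strand.

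The library totals ran from 4990408 to 21298678 counts. Values are given as CPM, the count of a gene per 1000000 counts of the library, summed over the models of the gene. The marker genes fixed for each cell type gave 1581 CPM for POU5F1 in hPSC and 4.43 CPM in ectoderm, 159 CPM for PAX6 in ectoderm, 101 CPM for SOX17 in endoderm and 64.4 CPM for HAND1 in mesoderm, against 31.7 CPM in endoderm. The endoderm and mesoderm libraries still held 695 and 493 CPM of POU5F1, a gene of the pluripotent state. GATA4, fixed as a mesoderm marker, was listed at 114 CPM in endoderm and not listed in mesoderm. PDGFRA, another, had 35.2 CPM in endoderm and 7.51 in mesoderm, and TBX20 was listed only in endoderm (0.238 CPM). HAPLN1, also a mesoderm marker, had 440 CPM in mesoderm and 65.9 in endoderm. Of the hPSC markers, LIN28A stood at 1718 CPM in hPSC and 1496 in ectoderm. TDGF1 and DPPA4 were lower in ectoderm, and NANOG was not listed there. Of the ectoderm markers, OTX2 and LHX2 were highest in ectoderm, ZIC1 had 0.356 CPM there, and SOX1 was listed in none of the 4 tables. The part of these markers in the values of the 4 genes was not tested.

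The low values in hPSC held in all 4 fractions. SMCHD1 had 0, 1 and 0 counts in the hPSC cytoplasm libraries, 1, 7 and 6 in nucleus, 9, 27 and 10 in nucleoplasm, and 6, 8 and 3 in chromatin. Its highest hPSC library, nucleoplasm replicate 2, reached 1.92 CPM. SMCHD1 RNA counts were thus highest in the nucleoplasm libraries and at most 1 in the cytoplasm libraries, where the group mean was 0.0223 CPM. SENP7 had 9 counts over the 12 hPSC libraries, with at most 2 in a library and 5 libraries at 0.

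ZFP14 had 4 counts in hPSC, all in nucleoplasm replicate 2. ZNF702P had 1 count, in chromatin replicate 1. Both genes were at 0 in the other 11 hPSC libraries. A count of 0 over the 3 libraries of a group allows up to 3 counts, which is 0.0694 CPM in the hPSC nucleus and 0.0782 CPM in the hPSC cytoplasm. PCR duplicates are not separate molecules, so the limits hold for counting error alone.

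In ectoderm the 4 genes were present in every library. SMCHD1 had 86.1, 60.8 and 66.0 CPM in cytoplasm, 26.0, 5.40 and 15.0 in nucleus, 88.8, 88.2 and 76.8 in nucleoplasm, and 76.3, 91.5 and 52.2 in chromatin. SENP7 had 42.8, 23.6 and 32.7 CPM in cytoplasm, 9.05, 1.41 and 6.88 in nucleus, 47.4, 48.9 and 41.1 in nucleoplasm, and 49.0, 58.6 and 39.3 in chromatin. For both genes the 3 nucleus libraries lay below all 9 other ectoderm libraries, and the share of all genes with this order was not counted. ZFP14 ranged from 4.70 to 39.3 CPM with a median of 32.9, and ZNF702P from 6.06 to 28.3 CPM with a median of 19.1. The lowest ectoderm library of each of the 4 genes was nucleus replicate 2.

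In endoderm 3 of the 4 genes lay above hPSC in every library, and ZFP14 was low. Such levels chose the genes, and the share of all genes above hPSC in every endoderm library was not counted. SMCHD1 ranged from 2.62 to 91.3 CPM over the 12 libraries with a median of 54.1, SENP7 from 0.806 to 30.3 with a median of 9.98, and ZNF702P from 0.470 to 25.7 with a median of 8.16. The lowest endoderm library of these 3 genes was nucleus replicate 1. ZFP14 had 6, 3 and 5 counts in cytoplasm, 2, 2 and 2 in nucleus, 5, 2 and 3 in nucleoplasm, and 26, 8 and 15 in chromatin. No endoderm library was at 0, and 6 of the 12, the chromatin libraries among them (1.01 to 2.11 CPM), exceeded its highest hPSC library of 0.285 CPM. The other 6 did not, so the description as a gene present in the lineages holds for ZFP14 in endoderm only in part.

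Mesoderm held all 4 genes. SMCHD1 had 79.4, 65.0 and 58.0 CPM in cytoplasm, 96.7, 99.2 and 111 in nucleus, 52.7 in the single nucleoplasm library, and 120, 143 and 133 in chromatin. SENP7 ranged from 11.1 to 44.5 CPM with a median of 31.7, ZFP14 from 11.2 to 24.8 with a median of 15.5, and ZNF702P from 2.87 to 12.1 with a median of 4.59. Every derived library, apart from those of ZFP14 in endoderm, exceeded the highest hPSC library of the same gene. This too follows the choice of the genes by level, and the share of all genes that separate so was not counted. The order of the derived cells depended on the fraction. SMCHD1 averaged 102 CPM in mesoderm nucleus against 15.5 in ectoderm nucleus, but 52.7 in the mesoderm nucleoplasm library against 84.6 in ectoderm nucleoplasm. SENP7 averaged 32.3 CPM in mesoderm nucleus against 5.78 in ectoderm nucleus, and 17.1 in mesoderm cytoplasm against 33.0 in ectoderm cytoplasm.

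**Figure D1:**
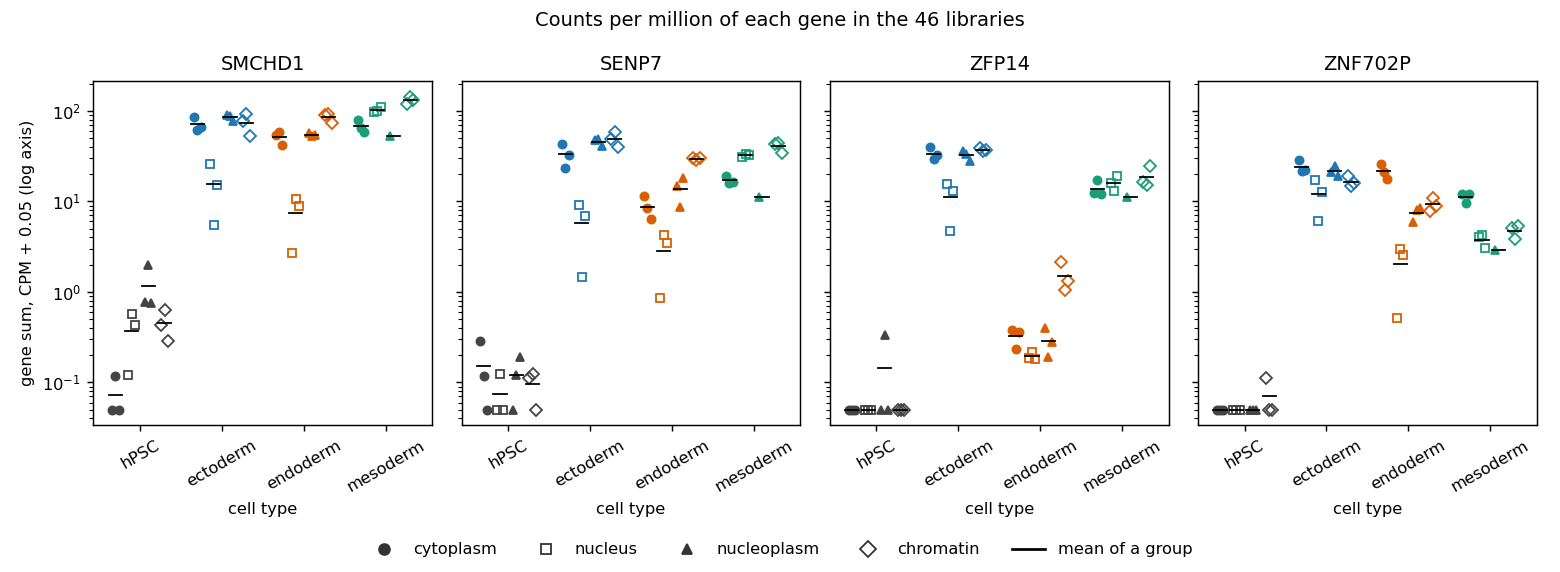
Each panel shows 1 gene, with the cell type on the x axis and the summed CPM plus 0.05 on a log y axis; a point is a library, its shape gives the fraction and a bar is the mean of a group. The hPSC points stay below 2 CPM in every fraction, and the ZFP14 points of endoderm lie between 0.134 and 2.11 CPM.

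The mean over the hPSC libraries was 0.762% of the mean over the ectoderm libraries for SMCHD1, 0.182% for SENP7, 0.0829% for ZFP14 and 0.0285% for ZNF702P. In the authors' TPM, which also corrects for the length of a model, the same shares were 1.14%, 0.315%, 5.22% and 4.57%. The ZFP14 and ZNF702P shares in TPM each rest on 1 library. The 4 counts of ZFP14 in hPSC nucleoplasm replicate 2 stood as 3.98 TPM in the authors' table, and the single ZNF702P count stood as 3.78 TPM.

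The hPSC table held none of the Ensembl transcripts that the derived tables listed for the 4 genes. It listed 1 model for each of the 4 genes. The derived tables listed 8 such transcripts, all of them also in the combined table. Models without an Ensembl transcript could not be matched between tables, so whether any of those is shared with hPSC is not shown. In the ectoderm table SMCHD1 had 1 model, Ensembl's SMCHD1-201, with all of its 10271 counts. The same transcript held 70.9% of the SMCHD1 count in mesoderm. ZFP14-201 held 82.8% of the ZFP14 count in ectoderm and 71.4% in mesoderm. ZNF702P-209 and ZNF702P-201 held 70.1% and 29.9% of the ZNF702P count in ectoderm, ZNF702P-201 held all of it in endoderm, and ZNF702P-201 held 88.1% of it in mesoderm. SENP7 was divided among 7 models in ectoderm, 2 in endoderm and 5 in mesoderm, and its transcripts SENP7-206 and SENP7-207 were listed in all 3.

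The endoderm table also lacked the main transcript of 2 genes. It listed SMCHD1 only as a model without an Ensembl transcript, which nevertheless carried 7903 counts. It also listed ZFP14 only as a model without an Ensembl transcript, with 79 counts. The mesoderm and ectoderm tables held both SMCHD1-201 and ZFP14-201.

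The one Ensembl transcript of the 4 genes in the hPSC table was ZFP14-202, a short transcript that begins coding in the same place as ZFP14-201. The start of the coding part of both is printed here as annotated, 5′ to 3′ from the ATG, because it shows where ZFP14-202 departs from ZFP14-201. The hPSC model was matched to ZFP14-202 by name alone, so its own bases are not shown. Capitals mark the bases that are not in an exon of the other transcript. The stretch of ZFP14-201 lies within chr19:36341580-36367892 and that of ZFP14-202 within chr19:36360427-36367892, both on the minus strand, with introns removed.
ZFP14-201: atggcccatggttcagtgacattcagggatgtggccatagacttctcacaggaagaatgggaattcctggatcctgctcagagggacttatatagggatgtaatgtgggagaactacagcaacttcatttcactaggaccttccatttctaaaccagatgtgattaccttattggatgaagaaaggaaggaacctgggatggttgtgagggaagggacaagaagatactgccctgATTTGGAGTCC
ZFP14-202: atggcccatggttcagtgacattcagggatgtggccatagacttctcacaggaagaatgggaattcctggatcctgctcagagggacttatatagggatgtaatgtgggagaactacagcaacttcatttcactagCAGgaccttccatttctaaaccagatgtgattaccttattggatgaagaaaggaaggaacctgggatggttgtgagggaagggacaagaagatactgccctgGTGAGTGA
ZFP14-202 has 246 coding bases with its stop codon, all printed, and ZFP14-201 has 1602, of which the first 246 are printed. The capitals inside ZFP14-202 are 3 bases at an exon start, and the capitals at its end are read on past the exon end that ZFP14-201 uses, up to a stop codon. In ZFP14-201 the capitals at the end belong to the last exon, which holds the remaining coding bases and is absent from ZFP14-202. Over the whole transcripts, 314 of the 642 bases of ZFP14-202 lie in exons of ZFP14-201, which has 7489 bases.

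The models in the hPSC table were also compared by effective length, estimated as the count divided by the TPM and scaled on annotated transcripts of known length. It was 5618 bases for the SMCHD1 model, 2771 for SENP7, 105 for ZFP14 and 28.3 for ZNF702P. The last 2 rest on 4 counts and 1 count. The scale was set on transcripts of at least 4000 bases. For ZFP14-202, with 642 annotated bases, the estimate of 105 lay far below the annotated length. The 28.3 for ZNF702P is therefore not to be read as the real length of its model. The main ectoderm models were longer, at 9046 bases for SMCHD1-201, 7623 for ZFP14-201 and 4927 for ZNF702P-209. A model with an Ensembl name did not always have the annotated length. ZNF702P-209 has 599 annotated bases, and SENP7-202 has 3272 beside an effective length of 4809 in ectoderm. ZFP14-201, with 7489 annotated bases, was at 5167 in mesoderm. Presence and absence of a named transcript rest on these names, not on a shared structure. The SMCHD1 model of the endoderm table had 5101 bases and 7903 counts, beside 78 counts for the hPSC model.

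The combined table, which holds the ectoderm libraries, lists further models of each gene. For ZFP14 it lists ZFP14-202 by its Ensembl identifier, and this transcript took 2 of the 4998 ZFP14 counts in ectoderm, or 0.0400%. The other 3 hPSC models have no Ensembl identifier, so they were set beside the combined model of nearest effective length, which need not be the same transcript. That model took 26 of 10839 SMCHD1 counts (0.240%), 5 of 5558 SENP7 counts (0.0900%) and 6 of 3143 ZNF702P counts (0.191%) in ectoderm. For SMCHD1 the match by length is weak: its hPSC model was estimated between 4961 and 7303 bases over libraries, and the next combined model, at 5024 bases, took 4103 counts in ectoderm. The hPSC libraries on the combined assembly were not analysed here. Reads of a transcript that a table does not list have no row of their own there, so an absence of the RNA in hPSC and an absence of the transcript from the hPSC table cannot be told apart.

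**Figure D2:**
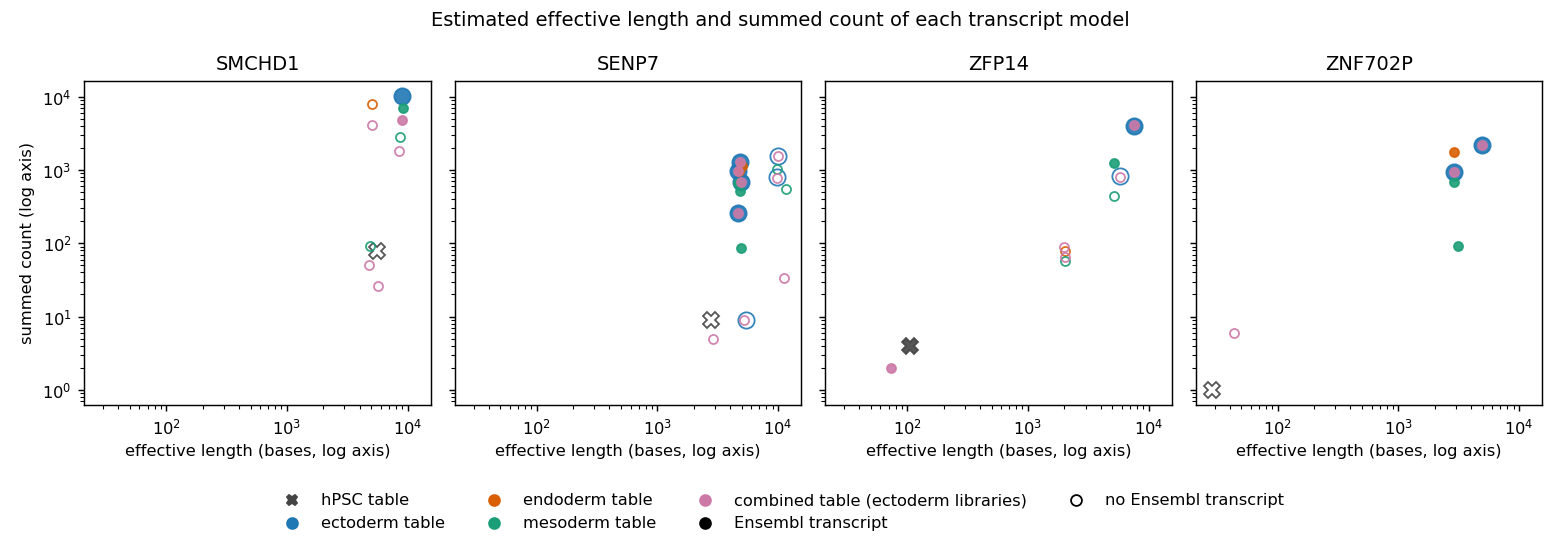
Each point is a transcript model, with its estimated effective length in bases on a log x axis and its count summed over libraries on a log y axis; crosses are the hPSC models and open symbols have no Ensembl transcript. The hPSC models lie at 78, 9, 4 and 1 counts, and the combined models of nearest length held 26, 5, 2 and 6 counts in the ectoderm libraries. For SMCHD1 another combined model, at 5024 bases and 4103 counts, also lies within the 4961 to 7303 bases estimated for the hPSC model.

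The absence of a main transcript was set against all 10701 genes listed in the 4 tables. For 8593 of them the model with the highest ectoderm count had an Ensembl transcript, called the lead transcript here, and 866 of these (10.1%) lacked it in the hPSC table. Among the genes under 1 CPM in hPSC and at 5 CPM or more in ectoderm, 43 had such a lead transcript and 34 of them (79.1%) lacked it in the hPSC table. SMCHD1, ZFP14 and ZNF702P are among these 34, and their choice by level put them among the 43. The share was 82.9% against endoderm, and against mesoderm 44 of 55 such genes lacked it. In the opposite direction, 61 genes under 1 CPM in ectoderm and at 5 CPM or more in hPSC had a lead transcript in hPSC, and 18 of these (29.5%) lacked it in the ectoderm table. For hPSC against endoderm, the endoderm table lacked it in 36 of 42 such genes (85.7%). The pattern is therefore shared by other genes and other tables, and is not particular to the 4 genes.

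**Figure D3:**
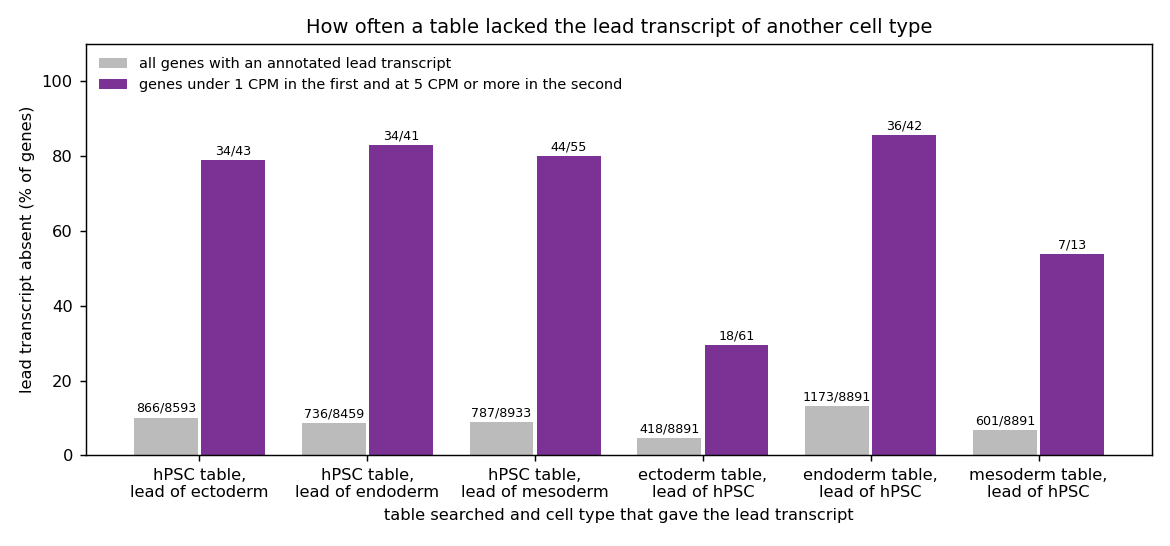
Bars give the share of genes, in percent, whose lead transcript in 1 cell type is absent from the table of another; grey bars are all genes with an annotated lead transcript and purple bars those under 1 CPM in the first cell type and at 5 CPM or more in the second, with numbers of genes above. For the hPSC table the grey bars lie between 8.70% and 10.1% and the purple bars between 79.1% and 82.9%.

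By Pearson's r of log2(CPM + 1) over the 46 libraries, the genes most like SMCHD1 among 10610 were ARHGAP29 (0.98), ZNF141 (0.98) and MORC3 (0.98). Those most like SENP7 were UBA6, MORC3 and SMC5, those most like ZFP14 were ZNF805, DIP2C and HECTD2, and those most like ZNF702P were RP2, SERTAD2 and ZNF415. The points include the hPSC libraries, where the mean of each of these genes was lowest, and they share libraries and depth; r without hPSC was not computed for these genes. ZNF805, a zinc finger gene, averaged 42.0 CPM in ectoderm and 20.1 in mesoderm, with 1.84 in endoderm and 0.185 in hPSC, so it too was low in endoderm. MORC3, which encodes a nuclear ATPase, stood at 0.296 CPM in hPSC against 39.0 in ectoderm. Of the 11 different genes, 7 lacked their lead ectoderm transcript in the hPSC table, 2 had it (ARHGAP29 and SERTAD2), and the lead models of SMC5 and ZNF415 had no Ensembl transcript. Between the members, r over the 46 libraries was 0.97 for SMCHD1 and SENP7 and 0.67 for ZFP14 and ZNF702P. Over the 34 derived libraries alone these values were 0.90 and 0.35.

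The distribution between cytoplasm and nucleus was tested within each derived cell type on gene sums with edgeR's quasi-likelihood test, adjusted over all genes, and a gene was called at an adjusted p under 0.05. In hPSC 0 of the 4 genes passed the filter on low counts, so no such test exists there. In ectoderm all 4 were called higher in cytoplasm than in nucleus, where 54.3% of 15629 genes were called, 27.5% higher and 26.8% lower. The log2 change was 1.98 ± 0.35 (SE, 3 libraries against 3, adjusted p = 0.000397) for SMCHD1, 2.32 ± 0.39 for SENP7, 1.36 ± 0.25 for ZFP14 and 0.75 ± 0.22 for ZNF702P. The median over the 4 genes was 1.67, and over all genes tested 0.0014. For each of the 4 genes the 3 cytoplasm libraries lay above the 3 nucleus libraries in CPM, and the share of all genes that separate so was not counted. Cytoplasm means of SMCHD1 (71.0 CPM) and SENP7 (33.0) lay below those in nucleoplasm (84.6 and 45.8) and chromatin (73.3 and 49.0). ZNF702P in cytoplasm (24.1) lay above both parts (21.7 and 16.4), and ZFP14 (33.7) lay between them (32.5 and 37.3). These orders were not tested.

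In endoderm 3 of the 4 were called higher in cytoplasm, where 69.9% of 12675 genes were called, 34.4% higher and 35.6% lower. ZNF702P had 25.7, 21.2 and 17.8 CPM in cytoplasm and 0.470, 2.93 and 2.47 in nucleus, a log2 change of 2.83 ± 0.34 with an adjusted p of 3.3e-06 by edgeR's test. SMCHD1 changed by 2.17 ± 0.27 and SENP7 by 1.00 ± 0.36. The SENP7 call was lost without endoderm cytoplasm replicate 1 (0.78, adjusted p = 0.0973 by edgeR) and without nucleus replicate 1 (0.65, adjusted p = 0.0536). ZFP14 gave 0.21 ± 0.68 and was not called. The 2 parts of the nucleus gave another order. SENP7 averaged 8.66 CPM in cytoplasm and 2.80 in nucleus, but 13.8 in nucleoplasm and 29.6 in chromatin. SMCHD1 averaged 51.5 CPM in cytoplasm and 7.36 in nucleus, but 54.4 in nucleoplasm and 85.1 in chromatin. ZNF702P in cytoplasm (21.6) lay above both parts (7.39 and 9.20). These orders were not tested.

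Mesoderm gave another pattern, in which 2 of the 4 genes were called lower in cytoplasm and 1 higher, where 63.3% of 14398 genes were called, 31.4% lower and 31.9% higher. SMCHD1 fell by 0.51 ± 0.14 on the log2 scale (adjusted p = 0.00883, edgeR) and SENP7 fell by 0.82 ± 0.15, with 18.8, 16.1 and 16.5 CPM in cytoplasm against 30.7, 33.6 and 32.7 in nucleus. ZNF702P rose by 1.68 ± 0.24, and ZFP14 gave -0.13 ± 0.23 and was not called. The libraries of the 2 fractions did not overlap for SMCHD1, SENP7 and ZNF702P, and the share of all genes without overlap was not counted.

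The cytoplasm to nucleus changes were then compared between cell types by a test of the difference itself, added after the values above had been seen. Ectoderm exceeded mesoderm by 2.55 ± 0.48 for SMCHD1, 3.19 ± 0.56 for SENP7 and 1.56 ± 0.38 for ZFP14, all called, where 56.4% of 11164 genes were called. Endoderm exceeded mesoderm by 2.67 ± 0.49 for SMCHD1 and 1.80 ± 0.58 for SENP7, where 53.5% of genes were called. ZNF702P was called between ectoderm and endoderm, at -1.995 ± 0.47, where 49.3% of genes were called. Some differences that edgeR did not call were called otherwise: ZNF702P for endoderm against mesoderm (1.13) by DESeq2 (1.16, adjusted p = 0.0286) and by edgeR without TMM factors (1.89, adjusted p = 0.0175), and SENP7 for ectoderm against endoderm (1.39) by DESeq2 (1.40, adjusted p = 0.0407). The nucleus libraries of ectoderm and endoderm lay below all other libraries of their cell type for SMCHD1 and SENP7. SMCHD1 averaged 15.5 ± 10.3 CPM (SD, n = 3) in ectoderm nucleus against 84.6 ± 6.75 in nucleoplasm and 73.3 ± 19.8 in chromatin, both parts of the nucleus. In mesoderm nucleus it averaged 102 ± 7.55 CPM. The share of counts taken by the 10 largest genes was 11.0% to 13.6% in the ectoderm nucleus libraries, 13.414% to 19.1% in those of endoderm and 6.17% to 10.0% in those of mesoderm. The part of these library differences in the result was not tested.

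Scaling matters for these changes. Without TMM factors, which correct for the makeup of a library, the median over all genes moved by 0.34 (ectoderm), 0.71 (endoderm) and -0.10 (mesoderm), and the share of called genes that were higher in cytoplasm moved from 50.7% to 76.0% in ectoderm and from 49.1% to 71.6% in endoderm. The SENP7 change in endoderm was then 1.65 in place of 1.00 and that of ZNF702P in ectoderm 1.05 in place of 0.75. None of the 10 called changes lost its call or its direction under this scaling. For the differences between cell types, the share of called genes that were higher moved from 50.5% to 27.2%, from 47.2% to 62.1% and from 38.2% to 84.9% for ectoderm against endoderm, ectoderm against mesoderm and endoderm against mesoderm.

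**Figure D4:**
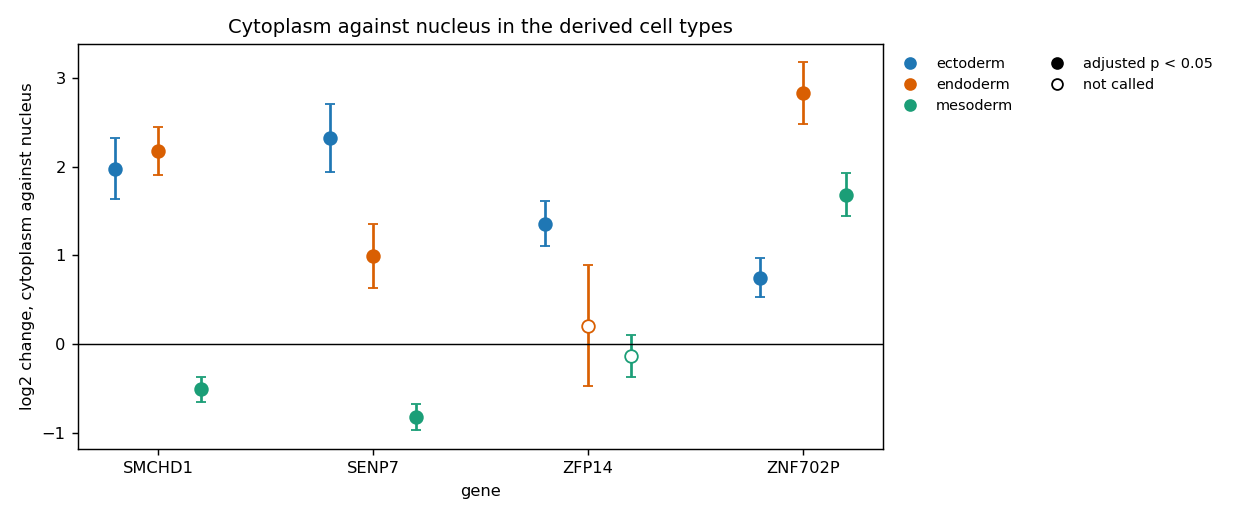
Points give the log2 change of cytoplasm against nucleus for each gene on the x axis in the 3 derived cell types, with the SE from edgeR's fit as the bar; filled points were called at an adjusted p under 0.05. SMCHD1 and SENP7 lie above 0 in ectoderm and endoderm and below 0 in mesoderm, and ZNF702P lies above 0 in all 3.

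Chromatin against nucleoplasm could be tested in ectoderm and endoderm. In ectoderm 1 of the 4 genes was called, where 44.4% of genes were called: ZNF702P had 18.9, 14.6 and 15.7 CPM in chromatin and 21.2, 24.7 and 19.2 in nucleoplasm, a log2 change of -0.68 ± 0.22 (adjusted p = 0.0225, edgeR). This call was lost without TMM factors (-0.40, adjusted p = 0.279) and without any 1 of 4 of the 6 libraries: chromatin replicate 2 or 3, or nucleoplasm replicate 1 or 2 (adjusted p between 0.0527 and 0.107 by edgeR). Without TMM factors the share of called genes that were higher in chromatin moved from 41.8% to 70.6% in ectoderm and from 42.8% to 73.7% in endoderm. In endoderm 1 of the 4 was called, where 53.7% of genes were called: ZFP14 rose by 2.03 ± 0.53 in chromatin (adjusted p = 0.00467, edgeR), from 2 to 5 counts in nucleoplasm to between 8 and 26 in chromatin. ZFP14 passed the filter in endoderm only through its chromatin libraries, so its call there is no support for a difference. SMCHD1 and SENP7 were not called in either cell type, but without TMM factors SENP7 was called in endoderm (1.11 in place of 0.53, adjusted p = 0.0317, edgeR).

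Between the derived cell types, the cytoplasm libraries were compared on genes listed in all 3 of their tables. ZFP14 was higher in ectoderm than in endoderm by 7.01 ± 0.25 on the log2 scale and higher in ectoderm than in mesoderm by 1.28 ± 0.15 (adjusted p = 4.24e-06, edgeR). It passed the filter for the first of these only through ectoderm and mesoderm, and the endoderm table also lacked ZFP14-201. SENP7 was higher in ectoderm than in endoderm by 2.03 ± 0.19 and than in mesoderm by 0.93 ± 0.18, and ZNF702P higher in ectoderm than in mesoderm by 1.09 ± 0.15. SMCHD1 was higher in ectoderm than in endoderm by 0.57 ± 0.13. It gave 0.06 ± 0.13 for ectoderm against mesoderm, where the direction turned without ectoderm cytoplasm replicate 1 (-0.05) and without mesoderm cytoplasm replicate 3 (-0.0075). For ectoderm against endoderm 3 of the 4 genes were called, where 75.7% of 11138 genes were called, and for ectoderm against mesoderm 3 of 4, where 65.9% were called. For endoderm against mesoderm SMCHD1 (-0.51) and SENP7 (-1.10) were called lower in endoderm and ZNF702P (0.82) higher, where 60.0% of genes were called. ZFP14 gave -5.73 there, and it too passed the filter only through the other cell types, so neither of its comparisons with endoderm cytoplasm is support for a difference. Without TMM factors the share of called genes that were higher moved from 51.2% to 62.2% there. These comparisons share libraries, and the transcript assembly changed with the cell type. The SMCHD1 model of endoderm had an effective length of 5101 bases, against 9046 for that of ectoderm. In the authors' TPM, SMCHD1 in cytoplasm averaged 9.61 ± 2.25 (SD) in ectoderm, 11.2 ± 1.89 in endoderm and 8.77 ± 1.72 in mesoderm. Both orders of SMCHD1 with endoderm were thus the reverse of those in counts, and neither was tested in TPM.

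On chromatin, SMCHD1 was lower in ectoderm than in mesoderm by 0.93 ± 0.22 on the log2 scale (52.2 to 91.5 CPM against 120 to 143, adjusted p = 0.00328, edgeR), where 50.8% of 11121 genes were called. ZFP14 and ZNF702P were higher in ectoderm than in mesoderm there, by 0.92 ± 0.22 and 1.73 ± 0.24. ZFP14-201 had an effective length of 7623 bases in ectoderm and 5167 in mesoderm. In the authors' TPM, ZFP14 on chromatin averaged 10.8 ± 1.13 (SD) in ectoderm and 9.49 ± 2.10 in mesoderm. Its TPM ranges overlapped, at 9.60 to 11.8 and 7.56 to 11.7. ZNF702P kept its order, at 7.61 and 3.71 TPM. Neither was tested in TPM. Against endoderm, ZNF702P gave 0.60 ± 0.22 and SENP7 0.50 ± 0.20 on chromatin with adjusted p of 0.0289 and 0.0453 by edgeR, where 60.8% of genes were called; without TMM factors the share of these that were higher moved from 48.6% to 60.6%. The SENP7 call was lost without any of 5 of the 6 libraries, and without ectoderm chromatin replicate 2 the change was 0.30 (adjusted p = 0.241). The ZNF702P call was lost without any of 4 of them: chromatin replicates 1 and 2 of ectoderm and 1 and 3 of endoderm, with adjusted p between 0.0531 and 0.114 by edgeR. ZFP14 was also higher on chromatin in ectoderm than in endoderm, by 4.39 ± 0.28, so 3 of the 4 genes were called there. The ZFP14 comparisons with endoderm chromatin rest on 8 to 26 counts in its libraries, and the endoderm table lacked ZFP14-201. For endoderm against mesoderm on chromatin ZFP14 was lower (-3.47) and ZNF702P higher (1.13), 2 of the 4 genes, where 42.4% of genes were called. SMCHD1 (-0.49) was not called there but was without TMM factors (-0.64, adjusted p = 0.0215, edgeR). Here the share that was higher moved from 51.5% to 39.3% without TMM factors.

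The isoforms of SENP7 moved more between replicate libraries than its gene sum. In ectoderm cytoplasm SENP7-202 took 48.9%, 35.3% and 42.5% of the SENP7 count, and in ectoderm chromatin it took 0%, 24.2% and 0%. A model without an Ensembl transcript and with an effective length of 9965 bases took 47.9%, 39.3% and 38.6% in chromatin and 20.2%, 11.3% and 11.3% in cytoplasm. These groups did not overlap, and how many of all models separate so was not counted. SENP7-207 took 0 counts in ectoderm cytoplasm replicates 1 and 2 and 105 counts in replicate 3. Over the 11 groups with 3 libraries and more than 1 SENP7 model at 1 CPM or above, there were 18 cases of a model at 0 counts in 1 library and at 30 or more in another of the same group. The coefficient of variation of the gene sum ran from 3.05% to 68.1% in these groups and the median over models from 31.2% to 153%. Of 13 SENP7 models tested between cytoplasm and nucleus, edgeR called 0, where it called 13.7% of transcripts in ectoderm, 42.1% in endoderm and 32.0% in mesoderm. At an unadjusted p under 0.05 there were 3, and DESeq2 called 3 of 14. One of these was SENP7-206 in ectoderm, at 3.16 with an adjusted p of 0.0483 by DESeq2.

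**Figure D5:**
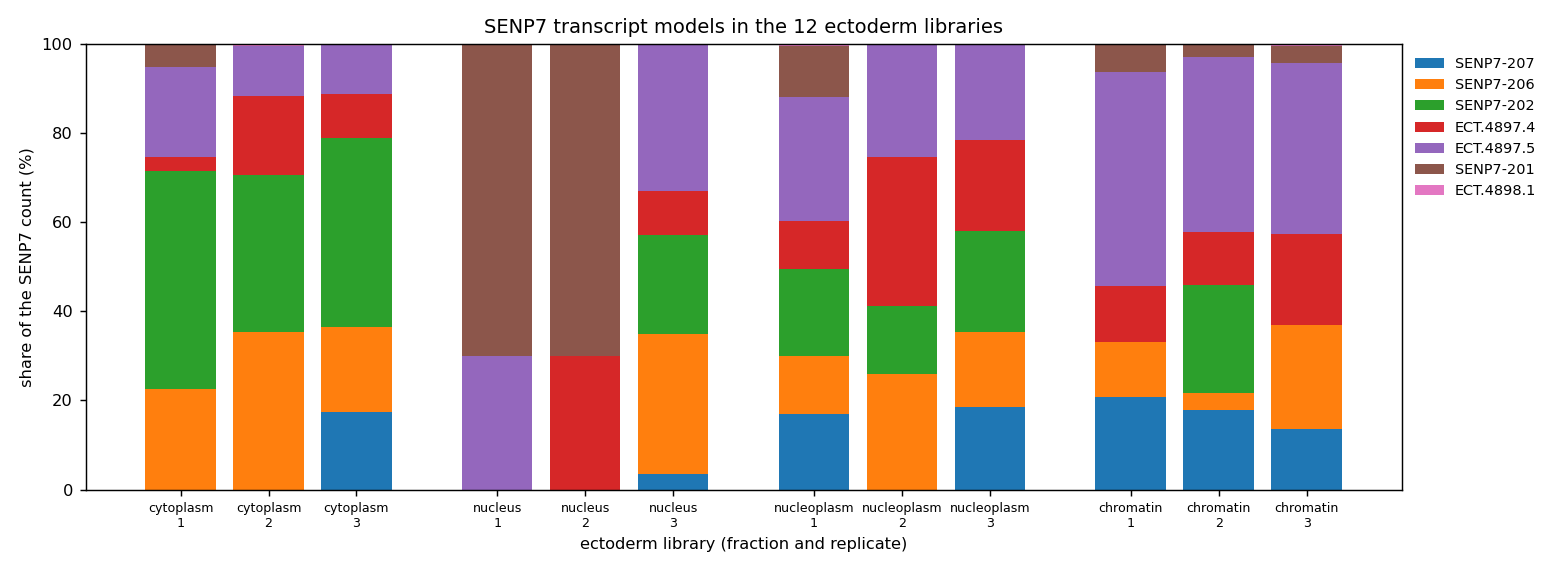
Stacked bars give the share of the SENP7 count, in percent, taken by each of 7 transcript models in the 12 ectoderm libraries, by fraction and replicate. SENP7-202 takes 35.3% to 48.9% in cytoplasm and is at 0 in 2 of 3 chromatin libraries.

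Single models of the other genes were tested in the same way. The ectoderm SMCHD1-201 model rose by 1.95 ± 0.38 in cytoplasm against nucleus (adjusted p = 0.00764, edgeR), close to its gene sum of which it is the only model. In mesoderm SMCHD1-201 gave -0.01 ± 0.19 and was not called, while a second SMCHD1 model without an Ensembl transcript, of 8596 bases effective length, was called at -1.20 ± 0.30 (adjusted p = 0.0179, edgeR). It took 14.2% of the SMCHD1 count in mesoderm cytoplasm and 26.9% in nucleus. Its call was lost without mesoderm cytoplasm replicate 1 or 2 or nucleus replicate 3, with adjusted p between 0.0608 and 0.0674 by edgeR. ZNF702P-209 had 27 to 34 counts in each mesoderm cytoplasm library and 0 in the other 7 mesoderm libraries. In ectoderm the model of the same name took 64.0% of the ZNF702P count in cytoplasm and 88.7% in chromatin. Its effective length was 4927 bases there and 3113 in mesoderm.

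The surroundings of the 4 genes were read from lists of related and neighbouring genes, tested for each derived cell type against hPSC. The assembly changed with the cell type in all of these tests, so the list results are a description. Of 22 tested genes of SMC proteins and SMCHD1 partners, 8 rose and 11 fell in ectoderm cytoplasm, where 76.1% of 10672 genes were called, 39.1% higher and 37.0% lower. The list median was -0.34 against 0.04 over all genes. SMC5, a subunit of the SMC5/6 complex, rose by 5.60 ± 0.23 (adjusted p = 2.4e-11, edgeR) from a mean of 1.61 CPM in hPSC to 58.9 in ectoderm over all fractions. DNMT3B, a DNA methyltransferase, fell by 3.53 ± 0.23. In endoderm cytoplasm 4 rose and 8 fell, against 59.7% of all genes called, 27.5% higher and 32.2% lower. In mesoderm cytoplasm 1 rose and 10 fell, against 68.1% called, 35.0% higher and 33.1% lower. None of the 24 listed genes was under 1 CPM in hPSC and at 5 CPM or more in ectoderm. Only 72 of the 10701 genes listed in the 4 tables were, so 0 in a list this short tells little.

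Of 19 tested genes of the SUMO pathway, 7 rose and 6 fell in ectoderm cytoplasm, 1 rose and 6 fell in endoderm cytoplasm, and 5 rose and 10 fell in mesoderm cytoplasm. Over all genes 39.1% rose and 37.0% fell in ectoderm cytoplasm, 27.5% and 32.2% in endoderm and 35.0% and 33.1% in mesoderm. SENP5, another SUMO protease, rose by 1.75 ± 0.13 in ectoderm cytoplasm (adjusted p = 1.26e-08, edgeR), and SENP3 fell by 1.24 ± 0.09. None of the 21 listed genes was under 1 CPM in hPSC and at 5 CPM or more in ectoderm. Over the 4 tables only 72 of 10701 genes were. SENP7 meets this rule, but it was chosen by such levels, so its contrast with the list is no result. With any 1 library left out, the number called in endoderm cytoplasm ran from 2 to 8 for this list and from 6 to 11 for the SMC list.

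Of the zinc finger genes around ZFP14 on chromosome 19, 14 of 27 were tested; 11 rose and 0 fell in ectoderm cytoplasm, 5 rose and 4 fell in endoderm cytoplasm, and 7 rose and 2 fell in mesoderm cytoplasm. The shares of all genes that rose were 39.1%, 27.5% and 35.0%, and those that fell 37.0%, 32.2% and 33.1%. Genes near 0 in hPSC pass the filter only through the derived cells, and the assemblies differ, so these counts are a description. In this list 4 genes were under 1 CPM in hPSC and at 5 CPM or more in ectoderm, beside 72 of 10701 genes over the 4 tables. ZNF260 had 0.720 CPM in hPSC and 59.0 in ectoderm, and ZNF570 0.0159 and 7.69; the hPSC table lacked the lead ectoderm transcript of both. ZNF569 and ZNF573 had lead ectoderm models without an Ensembl transcript. On chromatin 8 rose and 0 fell in ectoderm against hPSC, where 62.5% of 10672 genes were called, 32.4% higher and 30.1% lower.

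Of the zinc finger genes around ZNF702P, 23 of 29 were tested; 12 rose and 4 fell in ectoderm cytoplasm, 15 rose and 2 fell in endoderm cytoplasm, and 18 rose and 1 fell in mesoderm cytoplasm, beside 39.1% and 37.0%, 27.5% and 32.2%, and 35.0% and 33.1% of all genes. The list medians were 0.46, 0.91 and 0.60, and those over all genes 0.04, -0.05 and 0.01. ZNF415 averaged 0.295 CPM in hPSC, where its table lists 1 model, and 14.3 CPM in ectoderm, where it lists 15. It was the 1 gene of this list under 1 CPM in hPSC and at 5 CPM or more in ectoderm. Zinc finger genes of this cluster have similar sequences, so how reads were divided among them is uncertain. For endoderm against hPSC in cytoplasm, the share of called genes that were higher moved from 46.03% to 67.0% without TMM factors.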

How the data were processed

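The members and lists were chosen with earlier results of these data known. NEBNext Ultra was used for library preparation, per the labels' protocols. The authors deposited estimated counts and TPM per assembled transcript; STAR, RSEM and hg38 are named, without roles, per the submitters' processing notes. The deposited counts are whole numbers, and the way reads were shared among isoforms is not given in the sources used here. Among the ectoderm columns, 1 that matched no sample was not used.

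Counts were summed by Ensembl gene and divided by the table's library total (CPM). Tests used edgeR 4.0.16 in R 4.3.3: table totals, TMM, filterByExpr (minimum count 10) and the two-sided quasi-likelihood F test, adjusted by Benjamini-Hochberg over all features and called at 0.05. The SE is the log2 change over the root of F. Alternatives were DESeq2 1.42.0, no TMM factors, no filter, a replicate block, leaving out each library, the combined assembly and, for levels, TPM. The fits were tested on simulated data. The depths of 4990408 to 21298678 counts set the precision. Effective lengths were scaled on GENCODE 29 transcripts of at least 4000 bases with at least 100 counts. Named were the members, the 3 genes most like each, and the 3 largest called rises and falls of each list, of which some are printed; list genes under 1 CPM in hPSC and at 5 CPM or more in ectoderm were named after their values were seen. Replicates were compared in pairs: 0 were identical, and chi-squared divided by its degrees of freedom was at least 13.7. Mesoderm chromatin against nucleoplasm, with 1 nucleoplasm library, was not tested.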

Additional observations from a re-analysis of the deposited data

Results flagged for a closer look

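The change of cytoplasm against nucleus was compared between cell types by a test of the difference with edgeR, added after the values had been seen. Of the 4 genes, 1 was called for ectoderm against endoderm, 3 for ectoderm against mesoderm and 2 for endoderm against mesoderm. ZNF702P gave -1.995 on the log2 scale for ectoderm against endoderm. For ectoderm against mesoderm, SMCHD1 gave 2.55, SENP7 gave 3.19 and ZFP14 gave 1.56. For endoderm against mesoderm, SMCHD1 gave 2.67 and SENP7 gave 1.80. Between 49.3% and 56.4% of all genes were called in these 3 comparisons, so such calls are not particular to the 4 genes. No group was large enough to be searched for single outlying libraries, since groups held 3 libraries or 1.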

How the results depend on the processing

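With DESeq2 the transcripts called were 5346 for chromatin against nucleoplasm in hPSC, 9850 for cytoplasm against nucleus in ectoderm and 9448 for chromatin against nucleoplasm in ectoderm, against 2818, 5694 and 5789 with edgeR. In TPM the hPSC mean was 5.22% of the ectoderm mean for ZFP14 and 4.57% for ZNF702P, against 0.0829% and 0.0285% in CPM, each from 1 library. Leaving out 1 library gave 2600 to 4362 genes called for chromatin against nucleoplasm in hPSC, and 734 to 2316 transcripts; 3331 to 6837 transcripts for cytoplasm against nucleus in ectoderm, 3216 to 3711 for chromatin against nucleoplasm in ectoderm and 7194 to 9859 for cytoplasm against nucleus in mesoderm. It gave 6 to 11 called genes of the SMC list and 2 to 8 of the SUMO list in endoderm cytoplasm, and 5 to 10 of the SUMO list in ectoderm chromatin, all against hPSC.

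Directions that turned belonged to changes that were not called. For chromatin against nucleoplasm in ectoderm, SENP7 gave 0.10 without TMM and -0.28 to 0.070 with 1 library left out, and ZFP14 gave 0.20 without TMM, 0.0062 without the filter, 0.00086 on the combined assembly and -0.18 to 0.034 with 1 library left out. In endoderm, without TMM, ZNF702P gave 0.31 and its model 0.32, and the SMCHD1 model gave 0.65, and 0.024 with DESeq2. With 1 library left out, SMCHD1 gave -0.053 to 0.16 for ectoderm against mesoderm cytoplasm, SENP7 -0.012 to 0.35 for ectoderm against mesoderm chromatin, and the SMCHD1 difference between ectoderm and endoderm -0.51 to 0.37. The causes were not tested.

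Replicate numbers did not clearly pair the samples: correlations of same-numbered deviations ran from -0.55 to 0.43 for cytoplasm and nucleus within a cell type. Of 3 numbers there, 2 matched best with their own in hPSC, ectoderm and mesoderm, and 0 in endoderm. For chromatin and nucleoplasm 3 did so in ectoderm, 1 in hPSC and 0 in endoderm. With a replicate block 8127 genes were called for cytoplasm against nucleus in ectoderm, against 8483. On chromatin, ectoderm against endoderm, the block gave adjusted p of 0.0481 for SMCHD1, 0.0541 for SENP7 and 0.0532 for ZNF702P by edgeR, so the block gained the first call and lost the last 2.

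Depth limits what is said of hPSC: 0 counts in the cytoplasm group allow up to 0.0782 CPM. No hPSC libraries on another cell type's transcripts were analysed here.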
